A study of Mus musculus with 12 samples.

Results

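A group of 10 genes that the FGF-ERK pathway switches on, with products that act back on it, was followed through a WNT response in mouse cells. They were chosen by name, as the Sprouty genes Spry1, Spry2 and Spry4, the Spred genes Spred1 and Spred2, the receptor-level inhibitor Il17rd, the MAP kinase phosphatases Dusp4 and Dusp6, and the transcription factors Etv4 and Etv5. These were 10 of the 24736 genes in the table, and all 10 passed the filter on low counts that left 14196 genes to test. Messenger RNA was sequenced from embryonic stem cells differentiated for 72 h, with 3 cultures in each of 4 groups. All cultures received bFGF at 10 ng/ml and LGK974, which stops cells from secreting WNT ligands, at 5 µM. EpiLC (epiblast-like cells) were wild-type HM1 TetON cells that received nothing else, and CEpiLC (caudal epiblast-like cells) were the same wild-type cells exposed to the GSK3 inhibitor CHIR99021, which activates the WNT pathway, from day 2 to day 3. SOX2-OFF and SOX2-ON received CHIR99021 over the same period and came from the SOX2 TetON line, a clone of that background in which the endogenous Sox2 gene was ablated and a doxycycline-dependent Sox2 cDNA was placed in the Hprt locus. Doxycycline was withdrawn from SOX2-OFF and kept at 1 µg/ml in SOX2-ON. The 2 TetON groups thus differed in doxycycline as well as in Sox2, and any comparison of them with a wild-type group was also a comparison of 1 clone with its parent background, which cannot be told apart from the effect of SOX2 there.

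FGF ligands bind receptor tyrosine kinases and activate RAS, RAF, MEK and ERK in turn, and active ERK induces genes whose products damp the same cascade. Sprouty and Spred proteins act on RAS and RAF, Il17rd (also called Sef) acts at the receptor and on the passage of ERK to the nucleus, and Dusp6 and Dusp4 remove phosphate from ERK itself. Etv4 and Etv5 are ETS-domain factors of the PEA3 group that carry the transcriptional response forward. In the epiblast and primitive streak, FGF signalling supports cell movement, mesoderm formation and the posterior growth zone, and transcripts of these genes are widely used as a readout of ERK activity. ERK itself was not measured here, so that all values below are transcript levels.

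The start sites of the group were searched for motifs of factors that act in ERK and WNT signalling. Of the 10 genes, 7 were searched in the RefSeq promoters of GRCm38.p6, each holding 250 bases before and 50 bases after a start site. Etv5 had a pair of start sites, which made 8 promoters. None was found for Dusp4, Etv4 and Spry4. The search covered both strands and 4 kinds of motif. The first was the octamer bound by Capicua, a repressor that ERK inactivates, spelled TGAATGAA or TGAATGGA and also TCAATGAA or TCAATGGA. A Capicua octamer lay in 2 of the 8 promoters, those of Dusp6 and Spry2, against 3.84% of all 32851 promoters of the same length. The ETS core CCGGAA lay in 1 of the 8 (Spry2, against 14.9% of all), the SOX motif ATTGT in 1 (Dusp6, against 31.0%) and the TCF/LEF motif CTTTGA in 0 (against 16%). The matches did not overlap each other. In Dusp6 an octamer began 24 bases before the start site and another at base 2 of the transcript, and in Spry2 the octamer began 54 bases before the start site, all on the strand opposite to the gene. The 250 bases before the start sites of these genes are shown because, of those searched, they alone hold the Capicua octamer, which stands in capitals. They are the plus strand of chr10:99262981-99263230 for Dusp6 and the minus strand of chr14:105896820-105897069 for Spry2.
Dusp6: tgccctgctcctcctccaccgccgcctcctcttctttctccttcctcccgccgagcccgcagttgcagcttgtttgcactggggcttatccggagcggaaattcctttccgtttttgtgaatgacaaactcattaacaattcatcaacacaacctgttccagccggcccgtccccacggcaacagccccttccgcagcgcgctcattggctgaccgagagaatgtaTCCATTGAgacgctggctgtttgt
Spry2: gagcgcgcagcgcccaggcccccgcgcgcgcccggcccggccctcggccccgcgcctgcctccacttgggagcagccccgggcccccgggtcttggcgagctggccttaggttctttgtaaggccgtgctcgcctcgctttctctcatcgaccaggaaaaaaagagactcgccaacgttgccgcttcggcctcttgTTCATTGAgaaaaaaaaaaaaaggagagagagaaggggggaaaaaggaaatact
Both genes hold the octamer, and their mean levels, given below, were highest in SOX2-OFF for Dusp6 and in SOX2-ON for Spry2. A match of letters is not evidence of binding, and its absence from such a window says nothing about a factor.

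Library totals ran from 10408252 to 27337740 expected counts, and no gene of the 10 fell below 124 counts in any library. Sox2 itself, the gene that the TetON line controls, stood at 137 ± 29.7 TPM (SD, n = 3) in EpiLC, 10.37 ± 3.01 TPM in CEpiLC, 16.5 ± 4.48 TPM in SOX2-OFF and 187 ± 24.0 TPM in SOX2-ON. Sox2 transcript was thus lower in SOX2-OFF than in SOX2-ON and EpiLC, but it was called higher in SOX2-OFF than in CEpiLC (log2 0.65, SE 0.24, edgeR adjusted p = 0.037), with overlapping values. This level is not a measure of SOX2 protein, and it does not tell the transgene from the edited endogenous gene. The study reported that SOX2 protein declined gradually after doxycycline was removed. It also reported low levels of SOX2 in SOX2-OFF cells under CHIR99021. The caudal markers (T, Cdx1, Cdx2, Cdx4, Nkx1-2 and Hoxb9) summed to between 1386 and 1548 TPM in CEpiLC and to between 1.86 and 2.95 TPM in EpiLC. Markers of other cell types were present too. Extraembryonic endoderm genes (Gata4, Sox7, Dab2, Cubn, Amn, Afp, Apoa4 and Ttr) summed to between 253 and 298 TPM in SOX2-OFF and between 88.4 and 257 TPM in SOX2-ON but to at most 12.2 TPM in wild-type libraries, where Afp, Apoa4 and Ttr did not exceed 3 counts. Afp did not exceed 3 counts in either TetON group. Fibroblast genes (Col1a1, Col1a2, Col3a1, Thy1, Dcn, Lum, Postn, Acta2 and S100a4) were listed because the stem cells were kept on feeders before differentiation. They summed to between 61.6 and 124 TPM in wild-type libraries and between 23.5 and 57.3 TPM in TetON libraries, but did not move together. In SOX2-OFF relative to CEpiLC, 2 of the 9 fell (Thy1 and Acta2) and 1 rose (Dcn), against 24.9% and 23.6% of all tested genes. In SOX2-ON relative to CEpiLC, 2 fell and 3 rose, against 28.6% and 27.9%. The part of these cells in the results was not tested. In whole cultures, a change in the share of a cell type and a change in RNA per cell cannot be told apart.

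Whole chromosomes were shifted between the lines. The median gene of chromosome 8, which carries Dusp4, was 0.61 higher on the log2 scale in TetON than in wild-type libraries, and that of chromosome 11, which carries Etv4 and Spred2, was lower by a difference of -0.52. Chromosome 6, which holds no gene of the group, stood 0.58 higher, and no other chromosome was off by more than 0.0604. Each of the 6 TetON libraries showed the shift, with chromosome 8 medians between 0.58 and 0.63 and chromosome 11 medians between -0.55 and -0.50. Values of Dusp4, Etv4 and Spred2 are therefore given with and without it where lines were compared. Between SOX2-ON and SOX2-OFF, and between CEpiLC and EpiLC, the medians of chromosomes 8 and 11 differed by at most 0.03.

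**Figure D1:**
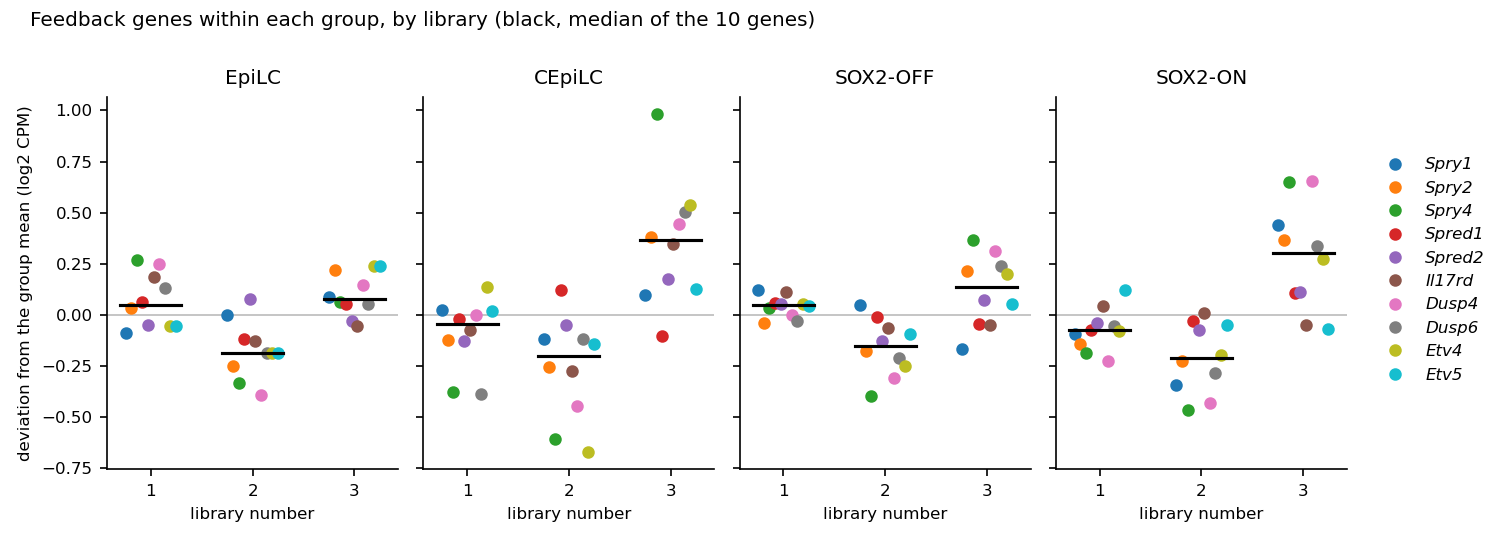
Deviation of each of the 10 genes from its own group mean in log2 CPM (y axis), for the 3 libraries of each group (x axis), with the median of the 10 genes as a black bar. The median of the library numbered 2 lies below 0 in all 4 groups, and that of the library numbered 3 reaches 0.36 in CEpiLC and 0.30 in SOX2-ON.

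The 3 libraries of a group also differed in the level of the whole group of genes. In CEpiLC the library numbered 3 held the highest value of 9 of the 10 genes, and the same was so for 7 genes in SOX2-OFF and 8 genes in SOX2-ON, against 36.4%, 36.3% and 35.9% of all tested genes. EpiLC was less uneven, with 4 genes highest in library 3 and 5 genes in library 1. The library numbered 2 was the lowest for 8, 7, 8 and 7 genes in EpiLC, CEpiLC, SOX2-OFF and SOX2-ON, where the shares of all tested genes were 32.3%, 34.9%, 29.9% and 34.3%. Deviations from the group mean were positively correlated in 40 of the 45 pairs of the 10 genes, with a median Pearson r of 0.51 over the 12 libraries, while the median over all pairs of tested genes was -0.00034. Library 3 of CEpiLC stood out for Spry4, at 2.73 times the mean of the other libraries, and library 3 of SOX2-ON for Dusp4, at 2.01 times. Spred1 in CEpiLC, Spry1, Spred1 and Il17rd in SOX2-OFF, and Etv5 and Il17rd in SOX2-ON were not highest in library 3. Some markers of other cell types were also highest in library 3, and which library was lowest varied between groups. Paraxial mesoderm genes (Tbx6, Msgn1, Meox1, Dll1 and Rspo3) summed to 144, 222 and 709 TPM in CEpiLC libraries 1, 2 and 3. In the SOX2-OFF libraries these genes summed to 152, 143 and 269 TPM. Extraembryonic endoderm genes summed to 88.4, 114 and 257 TPM in the SOX2-ON libraries, but to 259, 298 and 253 TPM in the SOX2-OFF libraries. Their part in the levels of the feedback genes was not tested. Counts of the 10 genes are therefore also given with the 4 libraries numbered 3 left out.

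**Figure D2:**
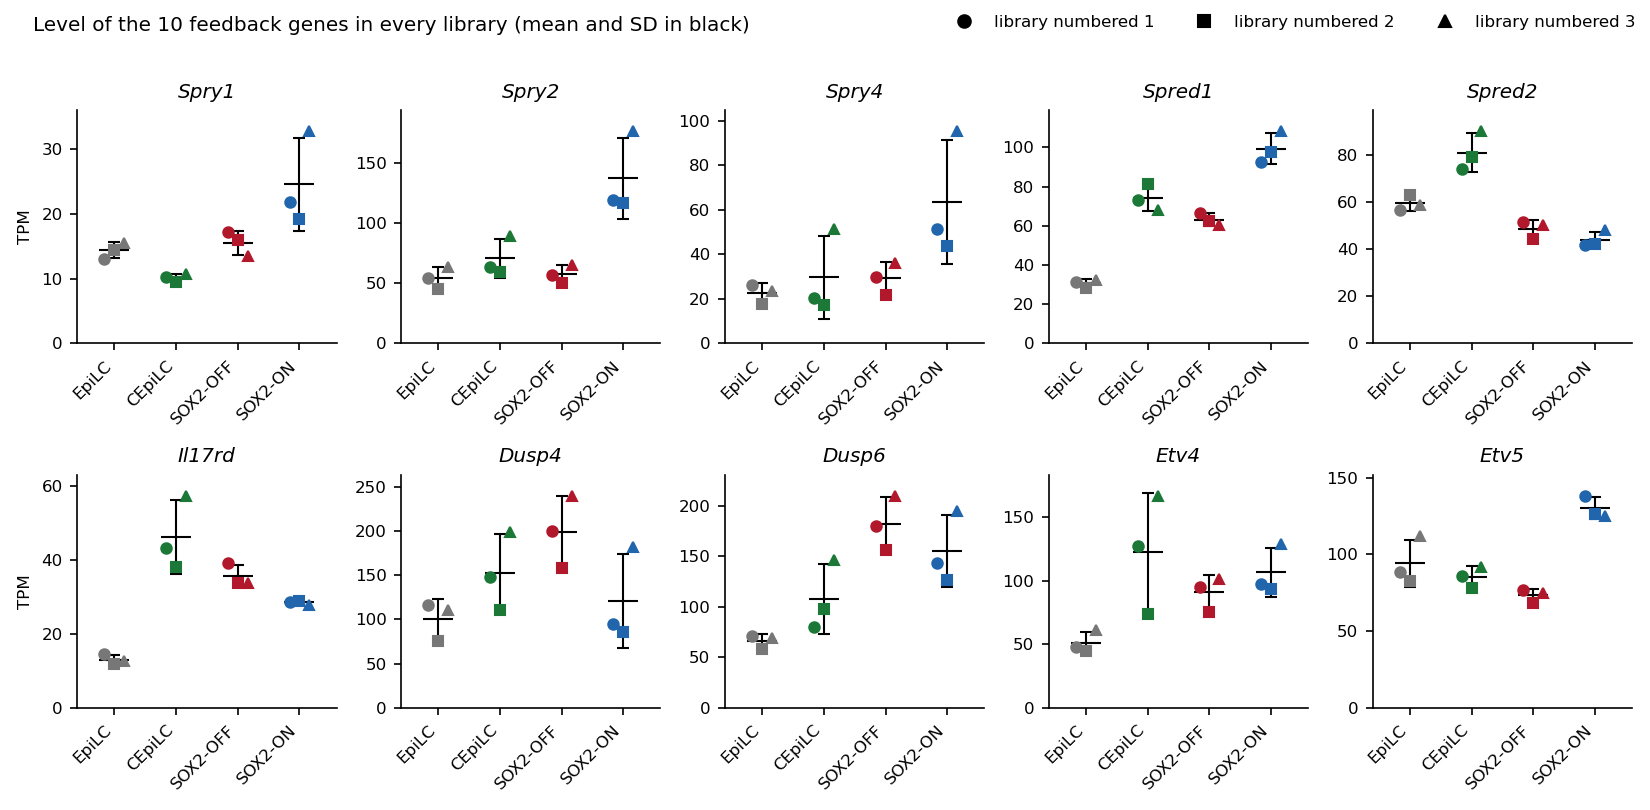
Level of each of the 10 genes in TPM (y axis, from 0) in every library of the 4 groups (x axis), with the mean and SD of 3 libraries in black and the library number by the shape of the point. Spry2, Spred1 and Etv5 are highest in all 3 SOX2-ON libraries, and Il17rd is lowest in all 3 EpiLC libraries.

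Exposure of wild-type cells to CHIR99021 raised a subset of the feedback genes while the added bFGF was constant. Il17rd, Spred1, Etv4, Dusp6 and Spred2 rose in CEpiLC relative to EpiLC, which is 5 of 10 where 22.1% of all tested genes rose. Spry1 alone fell, 1 of 10 where 20.1% of all tested genes fell. Spry2, Spry4, Dusp4 and Etv5 did not pass this test, which did not pair the libraries. With the library number as a block, Spry2 and Dusp4 rose too, for 7 higher and 1 lower. That numbers pair these groups was taken from the values alone, and the block was fitted over all 12 libraries. With the block, 6491 of the 14196 tested genes were called in either direction. The median log2 fold change of the 10 genes was 0.52, compared with 0.01 over all tested genes. With the libraries numbered 3 left out the counts were again 5 higher and 1 lower.

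SOX2-OFF cells differed from CEpiLC in no common direction. Sox2 transcript, which is not a measure of SOX2 protein in this line, was not lower there than in CEpiLC. In SOX2-OFF relative to CEpiLC, Dusp6 and Spry1 rose (2 of 10, against 23.6% of all tested genes) and Spred2, Il17rd and Spred1 fell (3 of 10, against 24.9%). The median log2 fold change of the 10 was -0.21, compared with -0.01 over all tested genes. Each of the lower calls rested on a setting or a library. Spred2 lost its call once the chromosome 11 shift was removed, Il17rd lost it without CEpiLC library 3 or without SOX2-OFF libraries 2 or 3, and Spred1 lost it without CEpiLC libraries 1 or 2 or SOX2-OFF libraries 2 or 3, so that 3 of the 10 were called without SOX2-OFF library 2 and 3 without library 3. With the libraries numbered 3 left out, 2 were higher and 2 lower.

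The 3 Sprouty genes of the group were called higher in SOX2-ON than in CEpiLC and in SOX2-OFF. Of these, only Spry2 kept both calls without any single library. In SOX2-ON relative to CEpiLC, Spry1, Spry4, Spry2, Etv5 and Spred1 rose (5 of 10, against 27.9% of all tested genes), and Spred2 and Il17rd fell (2 of 10, against 28.6%). Within the TetON line Spry2, Spry4, Etv5, Spry1 and Spred1 rose in SOX2-ON relative to SOX2-OFF (5 of 10, against 14.8% of all tested genes) and Il17rd fell (1 of 10, against 14.1%). These comparisons share the SOX2-ON libraries. Markers of other cell states moved as well. Of 8 naive pluripotency genes (Nanog, Esrrb, Klf2 and others), 8 rose against CEpiLC and 6 against SOX2-OFF, with summed levels of 307 to 416 TPM in SOX2-ON, 26.6 to 57.3 TPM in CEpiLC and 74.2 to 129 TPM in SOX2-OFF. Of 8 early streak and mesendoderm genes (Eomes, Mixl1, Gsc and others), 6 fell and 1 rose against SOX2-OFF, with sums of 67.6 to 119 TPM in SOX2-ON and 308 to 395 TPM in SOX2-OFF. Their part in the levels of the feedback genes was not tested. The median log2 fold changes of the 10 genes were 0.44 and 0.39, compared with -0.01 in each over all tested genes. Leaving out the libraries numbered 3 gave 6 higher and 3 lower in the former comparison and 4 higher and 2 lower in the latter. Without SOX2-OFF library 3 alone, 3 of the 10 were called within the TetON line.

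EpiLC had neither CHIR99021 nor a changed Sox2 gene. Against it, 5 of the 10 rose in SOX2-OFF (Dusp6, Il17rd, Spred1, Dusp4 and Etv4, against 31.5% of all tested genes) and 2 fell (Etv5 and Spred2, against 30.6%). In SOX2-ON 8 of the 10 rose, all but Dusp4 and Spred2 (against 30.7% of all tested genes), and Spred2 fell (1 of 10, against 29.1%). The median log2 fold change of the 10 genes was 0.62 for SOX2-OFF cells and 1.06 for SOX2-ON cells, compared with 0.01 in each over all tested genes. Leaving out the libraries numbered 3 gave 5 higher and 2 lower for SOX2-OFF and 8 higher and 1 lower for SOX2-ON. The fall of Spred2 was not kept in either once the chromosome 11 shift was removed, as described below.

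**Figure D3:**
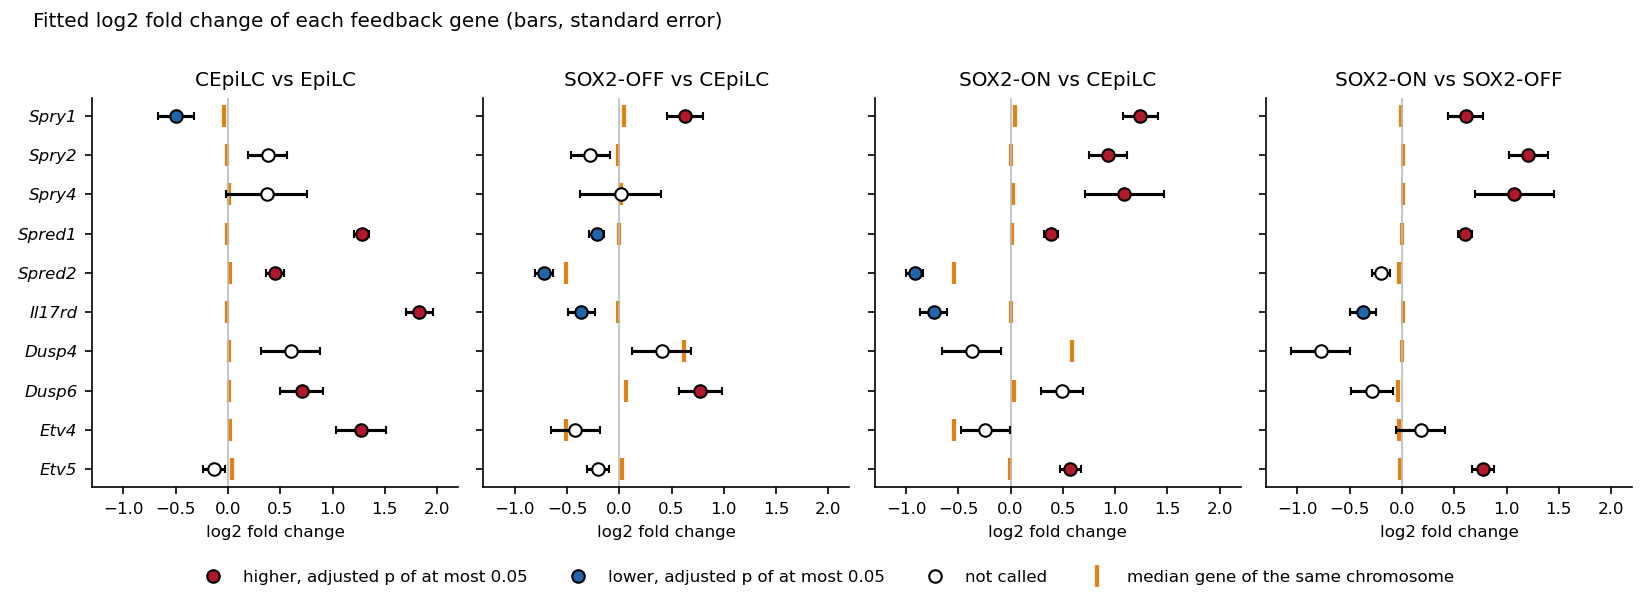
Fitted log2 fold change (x axis) of each of the 10 genes (y axis) in 4 comparisons, with its standard error; filled points passed an adjusted p of at most 0.05, and orange ticks mark the median gene on the same chromosome. The Sprouty genes, Spred1 and Etv5 are filled and above 0 in both comparisons of SOX2-ON. The points of Spred2 lie to the left of a displaced tick where SOX2-OFF and SOX2-ON are compared with CEpiLC.

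Sprouty proteins are intracellular inhibitors that are recruited to the membrane when a receptor kinase is active. Spry2, on chromosome 14 (105891947 to 105896819), was measured at 54.2, 45.4 and 63.7 TPM in EpiLC, 63.6, 59.0 and 89.2 TPM in CEpiLC, 56.6, 50.4 and 65.2 TPM in SOX2-OFF and 119, 117 and 176 TPM in SOX2-ON. The 3 SOX2-ON values stood above all 9 others, and the ranges of the remaining groups overlapped. The rise to SOX2-ON was 1.21 on the log2 scale when measured from SOX2-OFF (SE 0.19, edgeR adjusted p = 0.00035) and 0.93 when measured from CEpiLC (SE 0.18, edgeR adjusted p = 0.00084), and both calls held without any single library and without the libraries numbered 3. Between CEpiLC and EpiLC the difference of 0.38 (SE 0.19) was not called by edgeR (adjusted p = 0.12). With the library number as a block in edgeR it was 0.37 with an adjusted p of 0.0013.

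Spry1, on chromosome 3 (37639947 to 37644599), was the least abundant of the Sprouty genes in each group. It was measured at 13.1, 14.4 and 15.5 TPM in EpiLC, 10.3, 9.51 and 10.7 TPM in CEpiLC, 17.1, 15.9 and 13.5 TPM in SOX2-OFF and 21.7, 19.2 and 32.6 TPM in SOX2-ON. CEpiLC was below every other group and SOX2-ON above every other group, while EpiLC and SOX2-OFF overlapped (log2 difference 0.14, SE 0.17, edgeR adjusted p = 0.49). Relative to CEpiLC it rose by 1.24 (SE 0.17) in SOX2-ON (edgeR adjusted p = 3.91e-05) and by 0.63 (SE 0.17) in SOX2-OFF (edgeR adjusted p = 0.0081). The fall from EpiLC to CEpiLC, -0.49 (SE 0.17, edgeR adjusted p = 0.034), was lost without EpiLC libraries 2 or 3 or CEpiLC libraries 1 or 2, at adjusted p between 0.065 and 0.10, and in limma-voom (adjusted p = 0.055), with the same direction. The rise of 0.61 (SE 0.16) from SOX2-OFF to SOX2-ON (edgeR adjusted p = 0.014) was lost without SOX2-OFF library 3 (0.53, adjusted p = 0.056) and without all libraries numbered 3 (0.28, adjusted p = 0.14).

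Spry4, on chromosome 18, was uneven between libraries, with a coefficient of variation of 63.5% in CEpiLC. It was measured at 26.4, 17.8 and 23.6 TPM in EpiLC, 20.2, 17.4 and 51.3 TPM in CEpiLC, 29.7, 21.6 and 36.3 TPM in SOX2-OFF and 51.5, 43.7 and 95.1 TPM in SOX2-ON. All SOX2-ON values exceeded those of EpiLC and SOX2-OFF, but CEpiLC library 3 lay within their range. Its rise of 1.46 (SE 0.38) from EpiLC to SOX2-ON held without any single library (edgeR adjusted p = 0.0051). The rises of 1.09 (SE 0.38) over CEpiLC (edgeR adjusted p = 0.026) and of 1.07 (SE 0.38) over SOX2-OFF (edgeR adjusted p = 0.049) did not. The former was lost without CEpiLC libraries 1 or 2 or SOX2-ON library 3, where it was 0.70, and in a fit of the 6 libraries compared (adjusted p = 0.066). The latter was lost without any SOX2-OFF library, without SOX2-ON libraries 1 or 3, and in DESeq2 (adjusted p = 0.074). With all the libraries numbered 3 left out, both were called. No difference among EpiLC, CEpiLC and SOX2-OFF was called. The direction turned from 0.37 to -0.26 in CEpiLC against EpiLC without CEpiLC library 3, and from 0.01 to -0.27 in SOX2-OFF against CEpiLC without CEpiLC library 2, among other settings.

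Spred proteins share a C-terminal domain with Sprouty and bring neurofibromin, which switches RAS off, to the membrane. Spred1, on chromosome 2 (117121071 to 117182279), had the smallest standard errors of the 10 genes. It was measured at 31.5, 28.5 and 32.2 TPM in EpiLC, 72.9, 81.3 and 68.1 TPM in CEpiLC, 66.5, 62.5 and 60.4 TPM in SOX2-OFF and 92.3, 97.8 and 108 TPM in SOX2-ON. No 2 groups overlapped, and the order was SOX2-ON, CEpiLC, SOX2-OFF and EpiLC. The step from EpiLC to CEpiLC was 1.28 (SE 0.07, edgeR adjusted p = 3.66e-08) and that from SOX2-OFF to SOX2-ON was 0.60 (SE 0.07, edgeR adjusted p = 3.96e-05). SOX2-ON exceeded CEpiLC by 0.39 (SE 0.07, edgeR adjusted p = 0.00044), and these 3 calls held without any single library. SOX2-OFF differed from CEpiLC by -0.22 (SE 0.07, edgeR adjusted p = 0.022), the call that several single libraries decide.

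Spred2, on chromosome 11 (19924442 to 20024026), followed another order. It was measured at 56.7, 63.2 and 59.1 TPM in EpiLC, 74.2, 79.4 and 90.2 TPM in CEpiLC, 51.5, 44.5 and 50.5 TPM in SOX2-OFF and 41.9, 42.2 and 48.1 TPM in SOX2-ON. CEpiLC stood above and the TetON groups stood below EpiLC, and the TetON groups overlapped. The rise from EpiLC to CEpiLC was 0.45 (SE 0.08, edgeR adjusted p = 0.00087) and lay within wild-type cells, where chromosome 11 was not shifted. Against CEpiLC, Spred2 fell by 0.92 on the log2 scale in SOX2-ON (SE 0.08, edgeR adjusted p = 1.45e-06) and by 0.72 in SOX2-OFF (SE 0.09, edgeR adjusted p = 1.67e-05), where the median chromosome 11 gene differed by -0.54 and -0.51. With the shift removed the SOX2-OFF difference was -0.20 (adjusted p = 0.071) and no longer called, and the SOX2-ON difference was -0.38 (adjusted p = 0.0019) and still called. Against EpiLC the direction turned, from -0.27 to 0.24 in SOX2-OFF (adjusted p = 0.015 before and 0.026 after) and from -0.47 to 0.05 in SOX2-ON (adjusted p = 0.00037 before and 0.60 after).

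Il17rd, on chromosome 14 (27038964 to 27107286), encodes a transmembrane protein that binds FGF receptors, and it showed the largest response to CHIR99021 of the 10 genes. It was measured at 14.5, 11.9 and 12.7 TPM in EpiLC, 43.4, 38.1 and 57.4 TPM in CEpiLC, 39.1, 33.9 and 33.9 TPM in SOX2-OFF and 28.7, 29.0 and 27.8 TPM in SOX2-ON. Every CHIR99021-treated library lay above every EpiLC library, by 3.56-fold in CEpiLC (log2 1.83, SE 0.13, edgeR adjusted p = 3.27e-07), 2.77-fold in SOX2-OFF (log2 1.47, SE 0.13, edgeR adjusted p = 7.77e-07) and 2.14-fold in SOX2-ON (log2 1.10, SE 0.13, edgeR adjusted p = 1.1e-05). Among the treated groups SOX2-ON was below CEpiLC, with a difference of -0.74 (SE 0.13, edgeR adjusted p = 0.00029) that held without any single library. SOX2-OFF lay between and overlapped CEpiLC. Its difference from CEpiLC, -0.36 (SE 0.13, edgeR adjusted p = 0.030), became -0.17 without CEpiLC library 3 (adjusted p = 0.14) and -0.15 without all libraries numbered 3 (adjusted p = 0.28), and was not called without SOX2-OFF libraries 2 or 3 or in a fit of the 6 libraries compared (adjusted p = 0.065). The difference of SOX2-ON from SOX2-OFF, -0.37 (SE 0.13, edgeR adjusted p = 0.043), kept its direction but lost its call without any single library of these 6, at adjusted p between 0.067 and 0.14, and with scaling by library size (adjusted p = 0.051). Il17rd therefore ran opposite to the Sprouty genes between CEpiLC and SOX2-ON.

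Dusp6 encodes a cytoplasmic phosphatase specific for ERK and Dusp4 a nuclear one. Dusp6, on chromosome 10 (99263231 to 99267489), was measured at 71.2, 58.2 and 69.5 TPM in EpiLC, 80.0, 97.7 and 146 TPM in CEpiLC, 180.4, 156 and 210.1 TPM in SOX2-OFF and 144, 127 and 195 TPM in SOX2-ON. All CEpiLC values were above EpiLC and below SOX2-OFF, and SOX2-ON overlapped both treated groups. The end of the gene overlaps a predicted noncoding gene, Gm34921, and how the counting treated the overlap is not given in the sources used here. The rise from EpiLC was 0.70 (SE 0.21) in CEpiLC (edgeR adjusted p = 0.016), 1.48 (SE 0.21) in SOX2-OFF (edgeR adjusted p = 4.22e-05) and 1.20 (SE 0.21) in SOX2-ON (edgeR adjusted p = 0.00026). The call in CEpiLC was lost without EpiLC library 2 (0.62, adjusted p = 0.067) or CEpiLC library 3 (0.42, adjusted p = 0.069), whereas those in the TetON groups were not lost without any single library. SOX2-OFF exceeded CEpiLC by 0.78 (SE 0.21, edgeR adjusted p = 0.0070), a call also kept without any single library. SOX2-ON was 0.49 (SE 0.20) above CEpiLC, which was not called by edgeR (adjusted p = 0.056) but was without CEpiLC library 3 (0.78, adjusted p = 0.0020), without SOX2-ON library 2 (0.63, adjusted p = 0.030), in limma-voom (0.55, adjusted p = 0.031), without a filter on low counts (0.50, adjusted p = 0.032) and without all libraries numbered 3 (0.59, adjusted p = 0.0027). The TetON groups differed by -0.28 (SE 0.20), which was not called (edgeR adjusted p = 0.33).

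Dusp4, on chromosome 8 (34807610 to 34819894), was measured at 116, 75.6 and 111 TPM in EpiLC, 148, 110.2 and 199 TPM in CEpiLC, 199.6, 158 and 239.7 TPM in SOX2-OFF and 95.3, 85.5 and 182 TPM in SOX2-ON. Apart from SOX2-OFF lying above EpiLC, all groups overlapped. That difference, 1.00 (SE 0.28, edgeR adjusted p = 0.0076), was 0.39 with the chromosome 8 shift removed and was then not called (adjusted p = 0.24). SOX2-ON differed from EpiLC by 0.23 (SE 0.28, edgeR adjusted p = 0.51), or by -0.38 with the shift removed (adjusted p = 0.26). SOX2-OFF differed from CEpiLC by 0.40 (SE 0.28, edgeR adjusted p = 0.255), or by -0.19 with the shift removed (adjusted p = 0.60). Between CEpiLC and EpiLC the difference was 0.60 (SE 0.28, edgeR adjusted p = 0.11), and 0.57 with an adjusted p of 0.0046 with the library number as a block. Without CEpiLC library 2 it was 0.80 and was called (adjusted p = 0.048). SOX2-ON stood apart from SOX2-OFF by -0.77 (SE 0.28), within a single line, with an edgeR adjusted p of 0.055. Without SOX2-ON library 3 that difference was -1.18 (adjusted p = 0.0039), and without all libraries numbered 3 it was -1.01 (adjusted p = 0.0035), and it was also called by limma-voom (-0.83, adjusted p = 0.038) and without a filter on low counts (-0.77, adjusted p = 0.033). Against CEpiLC, SOX2-ON differed by -0.37 (SE 0.28, edgeR adjusted p = 0.28), by -0.96 with the shift removed (adjusted p = 0.011), by -0.76 without SOX2-ON library 3 (adjusted p = 0.022) and by -0.53 without all libraries numbered 3 (adjusted p = 0.044).

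Etv4 and Etv5 encode closely related factors but did not move together. Etv4, on chromosome 11 (101769747 to 101785310), was measured at 48.1, 44.8 and 60.9 TPM in EpiLC, 128, 74.0 and 167 TPM in CEpiLC, 95.0, 75.6 and 102 TPM in SOX2-OFF and 97.7, 93.1 and 129 TPM in SOX2-ON. Every treated library exceeded every EpiLC library, and the 3 treated groups overlapped. The rise over EpiLC was 1.27 (SE 0.24) in CEpiLC (edgeR adjusted p = 0.00094), 0.85 (SE 0.24) in SOX2-OFF (edgeR adjusted p = 0.0075) and 1.03 (SE 0.24) in SOX2-ON (edgeR adjusted p = 0.0023), in the last 2 against the direction of the chromosome 11 shift. With the shift removed these 2 rises were 1.36 (adjusted p = 0.00026) and 1.55 (adjusted p = 9.63e-05). The unblocked edgeR test on 12 libraries called no difference among the treated groups, with SOX2-OFF at -0.42 (SE 0.23, adjusted p = 0.16) and SOX2-ON at -0.24 (SE 0.23, adjusted p = 0.40) relative to CEpiLC. Without CEpiLC library 2 the TetON groups were lower than CEpiLC, by -0.69 in SOX2-OFF (adjusted p = 0.0057) and -0.51 in SOX2-ON (adjusted p = 0.024), whereas with the shift removed the differences were 0.11 and 0.30 and were not called.

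Etv5, on chromosome 16 (22381313 to 22439570), was measured at 88.5, 82.4 and 111.7 TPM in EpiLC, 86.1, 78.0 and 91.7 TPM in CEpiLC, 76.7, 68.6 and 74.8 TPM in SOX2-OFF and 138, 127 and 125 TPM in SOX2-ON. SOX2-ON stood above all other groups. SOX2-OFF lay below CEpiLC in every library, by a difference of -0.20 (SE 0.10) that was not called (edgeR adjusted p = 0.12), and below EpiLC by -0.34 (SE 0.10, edgeR adjusted p = 0.011), a call lost without EpiLC library 3 (-0.21) or SOX2-OFF library 2 (-0.28). The rise to SOX2-ON was 0.78 (SE 0.10) from SOX2-OFF (edgeR adjusted p = 9.49e-05), 0.57 (SE 0.10) from CEpiLC (edgeR adjusted p = 0.00033) and 0.44 (SE 0.10) from EpiLC (edgeR adjusted p = 0.0021), each held without any single library. CHIR99021 left no detectable difference in wild-type cells, at -0.13 (SE 0.10, edgeR adjusted p = 0.31).

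**Figure D4:**
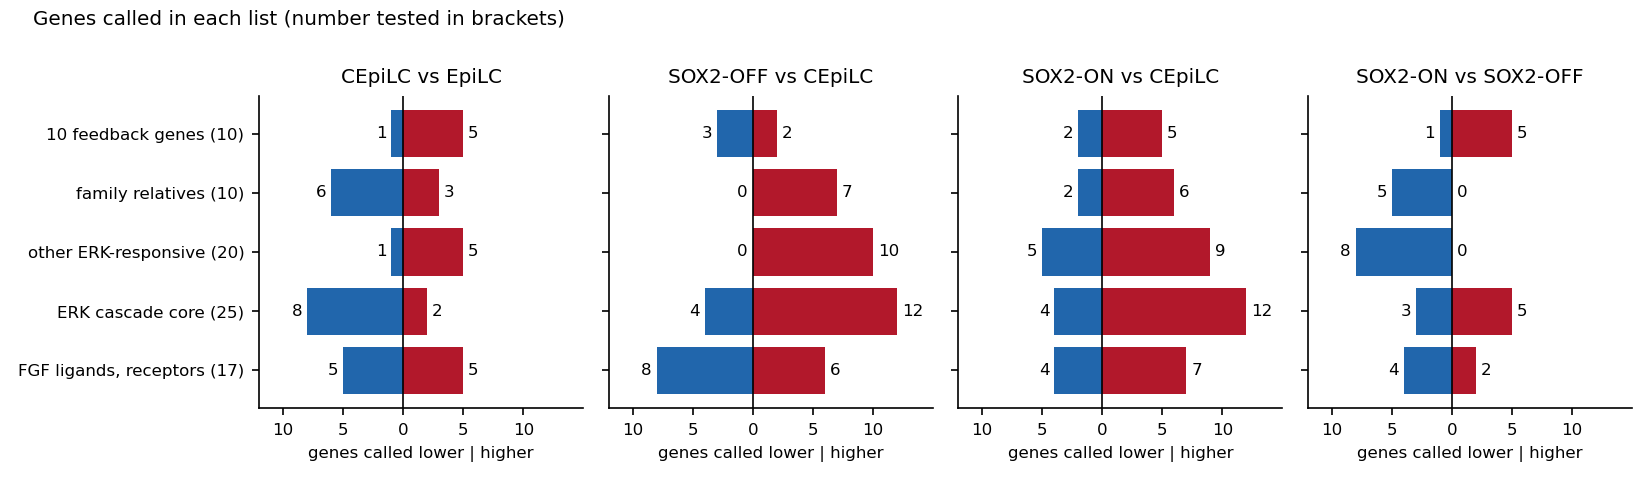
Number of genes called lower (left, blue) and higher (right, red) at an adjusted p of at most 0.05, for the 10 feedback genes and 4 further lists of the pathway (y axis), in 4 comparisons. In SOX2-ON against SOX2-OFF, 5 of the 10 feedback genes were higher, while 0 of 10 relatives and 0 of 20 other ERK-responsive genes were.

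Other genes of the pathway were counted in the same fit. The lists tested were 10 relatives of the feedback genes (Spred3, Etv1 and further Dusp genes), 20 other ERK-responsive genes, 25 genes of the cascade from adaptor to kinase, and 17 FGF ligands, receptors and co-receptors. Between SOX2-ON and SOX2-OFF the relatives and the other ERK-responsive genes were called lower or not at all, with 5 of 10 and 8 of 20 lower and 0 higher in each, where 14.1% of all tested genes were lower and 14.8% higher. The same counts without the libraries numbered 3 were 5 and 10 lower and 0 higher. Their median log2 fold changes were -0.51 and -0.36, where the 10 feedback genes had 0.39. Dusp2, which encodes a nuclear phosphatase, fell by 3.42 on the log2 scale (SE 0.47, edgeR adjusted p = 0.00014). Dusp5 and Dusp9, which encode ERK phosphatases, had log2 fold changes of -1.04 and -1.02. The immediate-early genes Egr3, Fos and Junb, which code for transcription factors, stood at -1.52, -1.38 and -1.24, and Plaur, the urokinase receptor, at -1.44. In this comparison 6 of the 8 early streak and mesendoderm genes and 3 of 6 tested extraembryonic endoderm genes were lower too, with medians of -1.89 and -0.91, and their part was not tested. In the cascade itself, 5 of 25 genes were higher and 3 lower, or 2 and 2 without the libraries numbered 3, with no change over 1 on the log2 scale.

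Where SOX2-OFF was set against CEpiLC, no gene of these 2 lists fell, while 24.9% of all tested genes did. Of the relatives 7 of 10 rose, and of the other ERK-responsive genes 10 of 20 rose, with medians of 0.76 and 0.52, against 23.6% of all tested genes. With the chromosome shift removed 6 and 9 rose and 0 fell. Without the libraries numbered 3 the counts were 8 and 11. Dusp9 and Dusp5 rose by 2.15 (SE 0.20, edgeR adjusted p = 2.03e-06) and 1.81 (SE 0.26, edgeR adjusted p = 7.92e-05), and Dusp8 by 1.13. Plaur, Phlda1, Junb and Fosl1 rose by 3.31, 2.07, 1.81 and 1.62, where Junb, on chromosome 8, was 1.21 with the shift removed. The extraembryonic endoderm genes summed to at least 253 TPM in these SOX2-OFF libraries and to at most 7.79 TPM in CEpiLC, and their part was not tested. In SOX2-ON relative to CEpiLC, 6 of 10 relatives rose and 2 fell, where 27.9% of all tested genes rose and 28.6% fell. Of the 20 other ERK-responsive genes 9 rose and 5 fell, or 7 and 6 with the shift removed.

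For CHIR99021 in wild-type cells, relatives and feedback genes differed in their counts. Of the 10 relatives 3 rose and 6 fell, with a median of -0.53, where 22.1% of all tested genes rose and 20.1% fell. Dusp1, a phosphatase of several MAP kinases, fell by 1.52 on the log2 scale (SE 0.11, edgeR adjusted p = 2.61e-07) and Dusp2 rose by 2.24 (SE 0.46, edgeR adjusted p = 0.0018) and Dusp9 by 1.07. Without the libraries numbered 3, 2 relatives rose and 7 fell, and 4 of the other ERK-responsive genes rose and 2 fell. On all libraries, 5 of the 20 other ERK-responsive genes rose and 1 fell, so that the share that rose was near that over all tested genes. Among those that rose were Epha2 (2.60), Epha4 (1.15), Egr3 (1.06) and Fos (1.04). In the cascade 2 of 25 rose and 8 fell, with Rps6ka3, a kinase that ERK phosphorylates, at 1.36. Cic, which encodes Capicua, stood at 31.3 ± 2.56 TPM (SD, n = 3) in EpiLC, 31.4 ± 2.25 TPM in CEpiLC, 43.9 ± 2.74 TPM in SOX2-OFF and 46.6 ± 4.83 TPM in SOX2-ON. It differed by 0.03 between CEpiLC and EpiLC (SE 0.08, edgeR adjusted p = 0.78) and by 0.02 within the TetON line (SE 0.08, edgeR adjusted p = 0.85). Between lines it was called higher, by 0.48 in SOX2-OFF (SE 0.08, edgeR adjusted p = 0.00020) and 0.51 in SOX2-ON (SE 0.08, edgeR adjusted p = 9.77e-05) relative to CEpiLC, and by 0.51 and 0.54 relative to EpiLC.

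Transcripts of FGF ligands changed while the added bFGF did not. Of the 17 ligands, receptors and co-receptors 2 were higher and 4 lower in SOX2-ON than in SOX2-OFF, against 14.8% and 14.1% of all tested genes. Without the libraries numbered 3 the counts were 6 and 5. Fgf8, a ligand of the primitive streak, was at or below 3 counts in each EpiLC library and stood at 62.1 ± 23.1 TPM in CEpiLC, 26.3 ± 6.84 TPM in SOX2-OFF and 3.94 ± 1.22 TPM in SOX2-ON (SD, n = 3). Its log2 fold change was -4.01 (SE 0.33) from CEpiLC to SOX2-ON (edgeR adjusted p = 5.59e-07) and -2.79 (SE 0.33) from SOX2-OFF to SOX2-ON (edgeR adjusted p = 4.76e-05), where the Sprouty genes rose. Fgf5, a ligand of the epiblast, fell from 79.5 ± 4.64 TPM in EpiLC to 5.19 ± 3.62 TPM in CEpiLC (SD, n = 3). Fgf4 was 7.92 ± 4.70 TPM in CEpiLC and lower in SOX2-OFF and SOX2-ON, by differences of -2.53 (SE 0.43, edgeR adjusted p = 0.00030) and -1.99 (SE 0.40, edgeR adjusted p = 0.00088). Among receptors, Fgfr1 was the most abundant of those named here, at 105 ± 19.5 TPM in EpiLC, 103 ± 8.82 TPM in CEpiLC, 128 ± 4.09 TPM in SOX2-OFF and 162 ± 13.4 TPM in SOX2-ON. Fgfr1 lies on chromosome 8, and its differences from CEpiLC, 0.33 in SOX2-OFF (SE 0.12, edgeR adjusted p = 0.039) and 0.61 in SOX2-ON (SE 0.12, edgeR adjusted p = 0.00076), were -0.27 and 0.02 and were not called with the shift removed (adjusted p = 0.073 and 0.88). Fgfr2 was 40.7 ± 10.7 TPM in EpiLC, 3.23 ± 1.38 TPM in CEpiLC, 4.74 ± 0.48 TPM in SOX2-OFF and 15.8 ± 2.19 TPM in SOX2-ON, which is a rise of 1.68 (SE 0.25) within the TetON line (edgeR adjusted p = 0.00026).

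As a description of likeness, the tested genes whose log2 CPM followed 9 of the feedback genes most closely over the 12 libraries were listed. These correlations mix differences between groups with those within them and carry no test. Spred1 was closest to Nrp2 (Pearson r = 0.98), Dusp6 to Dlc1 (0.98) and Spry1 to Anxa7 (0.96). Spred2 was closest to Tcp11x2 (0.97), Etv4 to Slc39a6 (0.95), Spry2 to Vipr2 (0.95), Dusp4 to Sh2b3 (0.95), Etv5 to Rfx2 (0.94) and Spry4 to Vcp (0.92). Among the 10 themselves the median correlation of the 45 pairs was 0.32 over the 12 libraries, with a range from -0.81 to 0.91, and 0.42 with the chromosome shift removed.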

How the data were processed

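Poly(A) RNA of 12 cultures, labelled as biological replicates, was sequenced from 1 end, with strand kept, to 76 bp. The authors trimmed reads (cutadapt 1.16), aligned them to mm10 (STAR 2.5.2a) and quantified RefSeq genes with RSEM 1.3.0. The deposited table holds expected counts per gene, which need not be whole (2.59 to 3.43% of values per library were not; all values of the 10 genes were), and TPM as the authors scaled it.

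Expected counts were rounded and tested with edgeR 4.0.16 (R 4.3.3), with the quasi-likelihood test, filterByExpr, TMM scaling and 1 model of 12 libraries. The Benjamini-Hochberg threshold was 0.05, SE was |log2 fold change| divided by the square root of F, and TPM served for levels. The members and lists were chosen with earlier results of these data known. Beyond the 10 members, Sox2, Cic, Fgf4, Fgf5, Fgf8 and Fgfr1, list genes were named from those called, over 1 on the log2 scale, at most 4 per direction by size, and not all such genes are named, and the nearest genes by r (that of Il17rd is not reported here). Chromosome medians used 7952 genes of at least 4 log2 CPM. Same-numbered CEpiLC and EpiLC libraries deviated together across genes (r = 0.120, 0.132 and 0.103), so numbers were taken to pair them, from the values alone. In each other comparison at least 1 of 3 r was under 0.1 (range -0.0151 to 0.201). The other r with CEpiLC were larger, at 0.179 and 0.173 for SOX2-OFF and 0.201 and 0.163 for SOX2-ON. Whether numbers pair those groups was thus not settled, and results with the block are given below. Promoters came from RefSeq, GRCm38.p6. Alternatives were RLE or library size scaling, other filters, DESeq2 1.42.0, limma-voom (limma 3.58.1), a replicate block, removal of chromosome shifts, the 6 libraries compared alone, and leaving out libraries.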

Additional observations from a re-analysis of the deposited data

How the results depend on the processing

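Counts of the 10 genes called moved by over 1.5 times only in comparisons with SOX2-OFF. The SOX2-OFF against CEpiLC count of 5 was 8 with the replicate block and ran from 3 to 5 without single libraries, and the SOX2-ON against SOX2-OFF count of 6 ran from 3 to 5. Counts over all tested genes stayed within 1.5 times. With the block the other counts were 8, 9, 7, 7 and 9 in place of 6, 7, 6, 7 and 9. Calls gained with the block, outside CEpiLC against EpiLC, were Spry2 (-0.26, adjusted p = 0.0083), Dusp4 (0.43, adjusted p = 0.018) and Etv4 (-0.37, adjusted p = 0.031) in SOX2-OFF against CEpiLC, Dusp4 (-0.40, adjusted p = 0.022) and Dusp6 (0.50, adjusted p = 0.0060) in SOX2-ON against CEpiLC, and Dusp4 (-0.82, adjusted p = 0.00068) in SOX2-ON against SOX2-OFF. Each of 6 libraries correlated best with its own number in 4 comparisons, and 2 and 5 of 6 did for SOX2-OFF and SOX2-ON against EpiLC.

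Directions turned for these genes, none of them called by the unblocked edgeR test on 12 libraries except Spred2, and the cause was not tested beyond the setting itself. Spry4 in CEpiLC against EpiLC ran from -0.26 to 0.65 without single libraries and was -0.24 without the libraries numbered 3. Spry4 in SOX2-OFF against CEpiLC, 0.01 on all libraries, was -0.039 by library size, -0.0062 by DESeq2 and -0.010 with the shift removed, and ran from -0.27 to 0.64 without single libraries. With the chromosome shift removed, Dusp4 was -0.19 in SOX2-OFF against CEpiLC and -0.38 in SOX2-ON against EpiLC, Etv4 was 0.11 in SOX2-OFF and 0.30 in SOX2-ON against CEpiLC, and Spred2 was 0.24 in SOX2-OFF and 0.055 in SOX2-ON against EpiLC. Etv4 in SOX2-ON against CEpiLC ran from -0.51 to 0.041 without single libraries. Spry2 in SOX2-OFF against EpiLC ran from -0.015 to 0.21. Dusp4 in SOX2-ON against EpiLC ran from -0.17 to 0.43 without single libraries and was -0.12 without the libraries numbered 3. Leaving out all the libraries numbered 3, and the list counts with the shift removed, were chosen after seeing the data.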
